A study of Mus musculus with 15 samples.

Results

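Smooth muscle cells contract through a set of dedicated proteins, and 10 genes that encode them were followed here across the tissues and diets of the study: Acta2, Actg2, Myh11, Tagln, Cnn1, Des, Lmod1, Synm, Smtn and Mylk. A gene was taken when its symbol stood in the gene name field of the count table, and each of the 10 had exactly 1 locus among 23589 named loci of 33603 in all. Male C57BL/6 mice were kept under 3 feeding regimens, and RNA was measured in 2 brain regions, hypothalamus and hippocampus, and in colon, liver and epididymal white adipose tissue (fat). Mice fed ad libitum (AL) and mice on 40% dietary restriction (DR) for 1 month from 4 months of age were killed at 5 months, and mice that returned to ad libitum food after that month (DR-AL) were killed at 7 months. Each tissue and diet had 1 library, made from RNA pooled from 5 mice, which gives 15 libraries.

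Contraction in smooth muscle starts when myosin light chain kinase, the product of Mylk, phosphorylates the regulatory light chain of myosin, so that the heavy chain encoded by Myh11 can pull on actin filaments. Acta2 encodes the actin typical of blood vessel walls and Actg2 the actin typical of the gut and other hollow organs. Tagln (transgelin), Cnn1 (calponin) and Smtn (smoothelin) bind actin in the contractile apparatus, Lmod1 (leiomodin) helps to assemble its filaments, and Des (desmin) and Synm (synemin) form intermediate filaments, which striated muscle also makes. Serum response factor (SRF) and its partner myocardin switch many of these genes on, through a DNA element called the CArG box. Vessel walls, present in all 5 tissues, can make many of these genes, and in the colon so can the thin muscle of the mucosa and the thick outer coat. Not each gene was well detected in each tissue: Actg2 had 1, 5 and 1 counts in the AL, DR and DR-AL libraries of liver. Other cells can make some of them, so a level is not a measure of vessel walls alone. Which cells made them in these samples was not measured. The study's methods give the colon samples as intestinal mucosa.

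The comparison asks whether these genes changed with 1 month of DR and whether they stayed changed after the return to AL food. Without a second library there is no replicate check, and a difference compares libraries and not the diets. The DR-AL mice were also 2 months older, so diet history and age cannot be told apart for them. Both comparisons against AL within a tissue use the same AL library, and the 5 tissues came from the same mice. In bulk tissue, fewer cells of a type and less RNA per cell cannot be told apart.

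Libraries held between 21767088 and 40500130 counts on named genes, with a median of 26554699. Levels are given as CPM, the counts on a gene scaled to a library total of 1000000. A gene was called higher or lower when a Z test on the square roots of the 2 normalized counts passed a Benjamini-Hochberg adjusted p of 0.05 and one level was at least 25% above or 20% below the other. Ratios are log2, with 0.5 counts added, followed by an exact interval at 95% that covers counting error only. Several libraries held counts on genes typical of other tissues, and those values stand beside the members' results. Where that RNA came from was not tested.

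On the reference annotation (GENCODE M21, GRCm38) the genes lie on 7 chromosomes: Acta2 on chromosome 19 (34241090 to 34255590, minus strand), Actg2 on 6 (83512905 to 83536265, minus), Myh11 on 16 (14194535 to 14291372, minus), Mylk on 16 (34745210 to 35002420, plus), Tagln on 9 (45929619 to 45936058, minus), Cnn1 on 9 (22099216 to 22109630, plus), Des on 1 (75360329 to 75368579, plus), Lmod1 on 1 (135324807 to 135368065, plus), Synm on 7 (67730160 to 67759742, minus) and Smtn on 11 (3517523 to 3540612, minus). The deposited table gives each locus a length of its own. Its Tagln locus spans 97638 bases against 6440 in this annotation and its Actg2 locus 59599 against 23361, so both reach past the annotated gene. Its loci of Mylk (217486 against 257211), Smtn (21772 against 23090), Des (7373 against 8251) and Cnn1 (10008 against 10415) are shorter than annotated. Its Acta2 locus spans 15257 bases against 14501, and those of Myh11, Lmod1 and Synm lie closer to the annotation. What these lengths change in the counts was not tested.

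The 2 smooth muscle actins have close relatives in striated muscle, and reads could pass between them if the sequences were alike. Aligned at the stop codon, the coding sequence of Actg2 matches Acta2 at 83.8% of 1131 bases, that of the skeletal muscle actin Acta1 at 85.4% of 1134 and that of the heart actin Actc1 at 82.5% of 1134. The last 60 coding bases of the 4 transcripts are shown because they carry 8 to 12 such differences, with capitals where a letter departs from Acta2.
Acta2: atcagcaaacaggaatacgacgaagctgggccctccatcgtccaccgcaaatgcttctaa
Actg2: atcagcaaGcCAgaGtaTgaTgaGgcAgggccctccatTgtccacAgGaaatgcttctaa
Acta1: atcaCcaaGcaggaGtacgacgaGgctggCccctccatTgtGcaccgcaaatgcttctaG
Actc1: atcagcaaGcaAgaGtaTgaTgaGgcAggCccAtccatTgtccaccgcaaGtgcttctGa
Of the 1986 windows of 50 bases in the longest Acta2 transcript, 7 also occur in a transcript of another gene, the gene model Gm8399. Of 6500 windows in Myh11, 26 occur in Myh9, the non-muscle myosin heavy chain. No such window was found for the other 8 genes.

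RefSeq promoter windows (GRCm38.p6, from 250 bases before to 50 after the start) were given for 7 of the 10 genes: Acta2, Cnn1, Des, Lmod1, Synm, Smtn and Mylk. They were searched for the CArG box, taken as CC, then 6 letters that are all A or T, then GG, which reads alike on both strands. None of the 7 windows held it, against 535 of all 32851 windows (1.63%). When 1 of the 6 central letters could be G or C, 2 of the 7 held a match, Acta2 with 2 and Synm with 1, against 9.98% of all windows. The 120 bases before the Acta2 start (chr19:34255374-34255493, minus strand) are printed with both matches in capitals, which begin 84 and 34 bases before the start. The 180 bases before the start of Myl9, the regulatory light chain that Mylk acts on (chr2:156775284-156775463, plus strand), are shown beside them because 1 of its 2 matches is exact, at 161 bases before the start.
Acta2: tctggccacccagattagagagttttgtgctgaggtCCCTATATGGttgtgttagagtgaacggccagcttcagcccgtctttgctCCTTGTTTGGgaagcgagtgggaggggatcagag
Myl9: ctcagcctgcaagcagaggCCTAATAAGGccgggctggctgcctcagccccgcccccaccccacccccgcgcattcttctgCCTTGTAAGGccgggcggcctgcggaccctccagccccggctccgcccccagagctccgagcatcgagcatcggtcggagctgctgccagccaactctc
A match in these windows describes the letters only, and regulatory sequence farther from the start was not searched.

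The highest level of all 10 genes was in a fat library, and for 9 of them each fat library stood above the other 12. The exception was Synm, with 44.2 to 137 CPM in fat and 62.0 to 69.5 in hippocampus. Acta2 stood between 326 and 1071 CPM in the 3 fat libraries, between 15.2 and 22.9 in hippocampus, 10.4 and 28.0 in hypothalamus, 5.43 and 20.6 in colon, and 1.31 and 3.35 in liver. In an edgeR quasi-likelihood fit with tissue and diet over the 15 libraries, in which the 3 diets serve as repeats of a tissue, 10 of 10 genes were higher in fat than in liver (41.6% of 17476 genes tested were, and 28.6% were lower) and 10 of 10 were lower in colon than in fat (40.4%, and 30.3% were higher). The fitted log2 difference of fat over liver ran from 1.75 ± 0.34 (SE) for Mylk, with an edgeR adjusted p of 0.00094, to 9.37 ± 0.75 for Cnn1, with an adjusted p of 1.94e-06. Without the DR libraries 9 of 10 passed.

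Colon and liver did not differ in 1 direction. In the same fit 5 genes were higher in colon (31.5% of all genes tested were), namely Acta2, Actg2, Myh11, Cnn1 and Tagln, and 2 were lower (32.5%), the intermediate filament genes Des and Synm. Actg2 differed most, with a log2 difference of 5.08 ± 0.50 (SE) and an edgeR adjusted p of 4.81e-06, from 1.96 to 8.68 CPM in colon against 0.040 to 0.230 in liver. Without the AL libraries 3 genes were higher, and leaving out each diet in turn left 1 gene lower. Lmod1, Smtn and Mylk did not pass.

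Per length, as FPKM, the order of the genes differed between tissues. Mylk stood at 27.8, 38.7 and 14.6 FPKM in the AL, DR and DR-AL libraries of liver, where Myh11 stood at 1.251, 2.59 and 1.51. In hippocampus Synm stood at 6.01, 6.40 and 7.60 FPKM, above Acta2 at 4.204, 5.43 and 7.06, and in hypothalamus at 2.86, 3.04 and 3.54, above Acta2 in AL (2.11) and DR-AL (2.79) and below it in DR (5.52). Synm was the 1 gene of 10 lower in hypothalamus than in hippocampus (log2 difference -1.17 ± 0.39 SE, edgeR adjusted p = 0.045, against 15.3% of all genes), and 0 were higher (15.5%). That call was lost without the AL or the DR libraries.

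**Figure D1:**
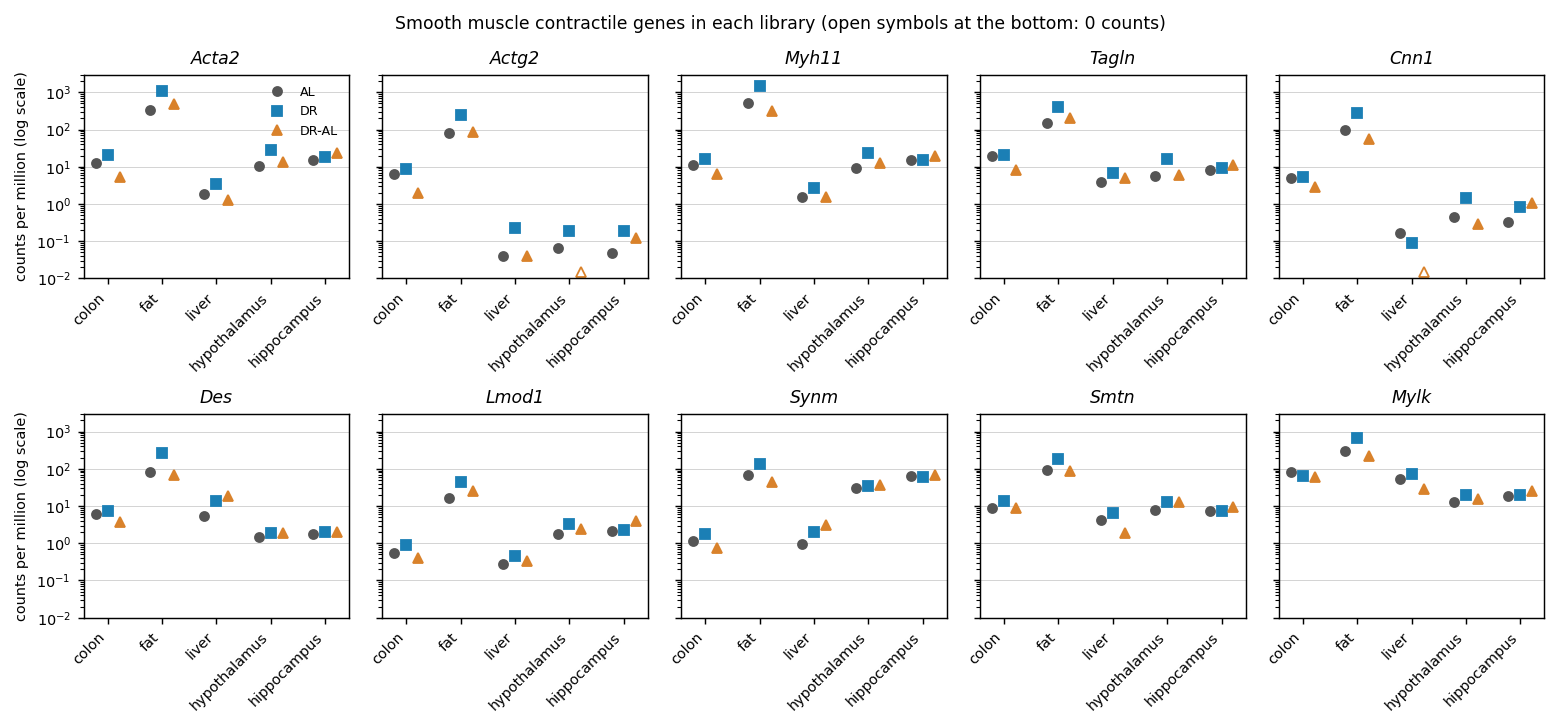
CPM on a log scale for each of the 10 genes, by tissue, with circles for AL, squares for DR and triangles for DR-AL, 1 library each. The highest symbol of each of the 10 genes is in fat, and there the DR square stands above the AL circle and the DR-AL triangle for all 10.

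In fat, all 10 genes were higher in the DR library than in the AL library, where 35.2% of the 20382 genes tested were higher and 10.4% lower. The median log2 ratio was 1.48, against 0.23 over all genes tested. In the order AL, DR and DR-AL, Acta2 read 326, 1071 and 484 CPM. Myh11 read 504, 1433 and 313 CPM in the same order. Des read 83.4, 274 and 67.1 CPM. For all 10 genes the DR library was the highest of the 3.

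The actins and the myosin heavy chain lay close together in size of change. The ratio of DR to AL was 1.71 for Acta2 (interval 1.68 to 1.75), 1.62 for Actg2 (1.55 to 1.70) and 1.51 for Myh11 (1.48 to 1.54). Actg2 read 80.7, 248.6 and 85.6 CPM in AL, DR and DR-AL. Among the actin-binding proteins, Cnn1 rose by 1.505 and Tagln by 1.36 on the log2 scale, and Smtn by 0.96, the smallest rise of the 10. Smtn is also made outside smooth muscle, and what this adds to its ratio was not tested. Lmod1 rose by 1.46, Mylk by 1.16 and the intermediate filament gene Synm by 1.01. The size of these ratios depends on the scale. By DESeq size factors Acta2 stood at 1.53 and Smtn at 0.77, and by the deposited FPKM at 1.03 and 0.16. Over all genes tested the median was 0.04 by size factors and -0.38 by FPKM.

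After the return to AL food, all 10 genes were lower in the fat DR-AL library than in the DR library (13.3% of all genes tested were, and 38.3% were higher). The median log2 ratio was -1.56, against 0.28 over all genes. Cnn1 fell most, from 283 to 55.6 CPM (log2 ratio -2.35, interval -2.43 to -2.27), and Myh11 fell by 2.20. Lmod1 fell least, from 45.5 to 25.3 CPM (log2 ratio -0.84, interval -0.99 to -0.70), and Tagln fell by 0.90.

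Against AL the fat DR-AL library gave no common direction. Acta2, Tagln and Lmod1 were higher (3 of 10, against 46% of all genes), and Myh11, Cnn1, Synm and Mylk were lower (4 of 10, against 11.9%). Tagln read 153, 392 and 210 CPM in AL, DR and DR-AL, Cnn1 99.8, 283 and 55.6, and Synm 67.7, 137 and 44.2. This comparison rests on the scale: all genes tested had a median log2 ratio of 0.39 by library totals and of 0.06 by DESeq size factors. By size factors, 0 genes were higher and 6 were lower. By the deposited FPKM, where all genes had a median of -1.01, all 10 were lower by the size of the change alone, without a test.

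The fat libraries also differed in counts on genes typical of other tissues and cell types. The skeletal muscle list of 10 genes, which includes Acta1, Ckm and the fast myosin heavy chains, summed to 130, 649 and 127 CPM in AL, DR and DR-AL, and 10 of 10 were higher in DR than in AL. Epididymis genes summed to 918, 3309 and 5284 CPM, testis germ cell genes to 4.77, 583 and 2818, and hepatocyte genes to 4993, 34.7 and 16.7. Mesothelium genes summed to 115, 185 and 74.0 CPM and were higher in DR at 5 of 5. Endothelial genes, which mark vessels, summed to 1091, 882 and 1256 CPM, with 0 of 8 higher and 3 of 8 lower in DR than in AL. From DR to DR-AL, 5 of these 8 were higher and 0 lower, opposite to the members. Pericyte genes summed to 509, 645 and 605 CPM, with 4 of 8 higher and 1 lower in DR than in AL. From DR to DR-AL, 5 of the 8 pericyte genes were higher and 1 lower, where all 10 members were lower. Adipocyte genes summed to 31466, 24958 and 19848 CPM, with 1 of 7 higher and 3 lower in DR than in AL. From DR to DR-AL, 5 of these 7 were lower and 1 higher. Fibroblast genes summed to 2363, 2525 and 2124 CPM, with 3 of 8 higher and 1 lower in DR than in AL and 4 of 8 lower in DR-AL than in DR. Over all genes tested in fat, 35.2% were higher and 10.4% lower in DR than in AL. From DR to DR-AL, 38.3% were higher and 13.3% lower. For DR against AL the fibroblast list lay near these shares. The part of any of these lists in the members' change was not tested.

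Most other contractile genes changed in the same direction in fat. Of 18 other contractile and attachment genes, 13 were higher and 2 lower in DR than in AL, against 35.2% and 10.4% of all genes. From DR to DR-AL, 0 were higher and 15 lower, against 38.3% and 13.3%. Their median log2 ratio of DR to AL was 0.78. Myl9 went from 118 to 331 CPM and back to 152. Tpm2, a tropomyosin, went from 143 to 477 to 111 CPM, and Pgm5, an attachment plaque protein, from 49.9 to 149 to 37.7 CPM. Synpo2 was among those lower in DR.

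Of 16 regulators of contraction, 8 were higher and 0 lower in the fat DR library than in AL, against 35.2% and 10.4% of all genes, with a median log2 ratio of 0.55. They include Ppp1r12b and Ppp1r12a, targeting subunits of the phosphatase that removes the phosphate again, Kcnmb1, the smooth muscle subunit of the large potassium channel (2.17, 8.28 and 4.97 CPM), and Mrvi1 (21.5, 52.9 and 19.3 CPM). Rhoa, Rock1 and Rock2, which act on the same phosphatase in most cell types, were not called in that comparison. Among 6 SRF and myocardin factors with a locus, Myocd rose from 6.52 to 17.6 CPM and stood at 6.95 in DR-AL, and Mkl1 was the other called higher. Srf itself read 41.5, 46.5 and 46.2 CPM and was not called.

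In colon, 4 of 10 genes were higher in DR than in AL (9.04% of 18242 genes tested were) and 1 was lower (10.6%). Those higher were Acta2, Actg2, Myh11 and Smtn, and the lower was Mylk. The median log2 ratio was 0.50, against 0.00 over all genes. Acta2 read 12.5, 20.6 and 5.43 CPM in AL, DR and DR-AL. Myh11 read 10.9, 15.9 and 6.47 CPM, and Actg2 6.29, 8.68 and 1.96. For these genes DR was the highest and DR-AL the lowest of the 3 libraries. In edgeR's exact test with an assumed coefficient of variation of 0.1 between pooled libraries, 1 of the 4 stayed higher and 0 were lower. By the deposited FPKM the ratio of Myh11 was -0.33.

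The DR-AL library of colon was the lowest of the 3 for all 10 genes. Against AL, 7 of 10 were lower (8.5% of all genes tested were) and 0 higher (5.83%), and against DR 8 of 10 were lower (7.67%) and 0 higher (6.78%). With the assumed variation, 3 were lower than in AL. Actg2 had a log2 ratio of -1.68 to AL (interval -2.17 to -1.22) and of -2.14 to DR (-2.62 to -1.71). Tagln read 19.5 and 20.9 CPM in AL and DR and 8.27 in DR-AL, with a log2 ratio of -1.23 to AL (-1.48 to -1.001). Cnn1 fell by 0.79 and Des by 0.69 from AL.

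Mylk and Smtn followed other courses in colon. Mylk, the highest of the 10 per length in each colon library, read 81.1, 64.7 and 61.9 CPM, highest in AL, with a log2 ratio of -0.33 for DR to AL (interval -0.41 to -0.24). Smtn read 9.04, 13.5 and 8.78 CPM, so that DR-AL stood at the level of AL (log2 ratio -0.04, interval -0.31 to 0.23). Lmod1, with 15, 30 and 10 counts, and Synm, with 31, 61 and 19, had too few counts for most differences to be detectable at this depth, and only Synm from DR to DR-AL passed.

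Other cell types in the colon libraries moved with the members in part. Fibroblast genes summed to 29.7, 42.9 and 31.6 CPM in AL, DR and DR-AL, with 5 of 8 higher in DR than in AL and 5 of 8 lower in DR-AL than in DR. From AL to DR-AL, 1 of 8 was higher and 1 lower. Genes of enteric neurons and glia, which lie between the outer muscle layers, summed to 6.33, 5.36 and 3.39 CPM, and 3 of 9 were lower in DR-AL than in AL. Epithelial genes summed to 24130, 25081 and 24140 CPM, and endothelial genes to 23.8, 29.5 and 23.6. Adipocyte genes summed to 53.2, 28.7 and 44.7 CPM, with 6 of 7 lower in DR than in AL and 6 of 7 higher in DR-AL than in DR, opposite to the members. Over all genes tested in colon, 9.04% were higher and 10.6% lower in DR than in AL. From DR to DR-AL 6.78% were higher and 7.67% lower, and from AL to DR-AL 5.83% and 8.5%. How much of the muscle layer each sample held was not measured, and its part in the differences between colon libraries was not tested.

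Of 18 other contractile and attachment genes in colon, 4 were higher and 1 lower in DR than in AL, where 9.04% of all genes were higher and 10.6% lower. From DR to DR-AL, 1 was higher and 8 were lower, against 6.78% and 7.67% of all genes. Myl9 read 5.54, 6.88 and 2.16 CPM and Tpm2 23.1, 27.9 and 14.8 CPM. Myl6, Tpm1 and Vcl, which the epithelium also makes, stood at 101 to 690 CPM, and among these the only call was a higher Vcl in DR-AL than in AL. Of the 16 regulators 1 was higher in DR than in AL, and of the 6 factors 0 were higher and 1 (Mef2c) was lower. Myocd stood at or below 0.27 CPM in all 3 libraries.

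**Figure D2:**
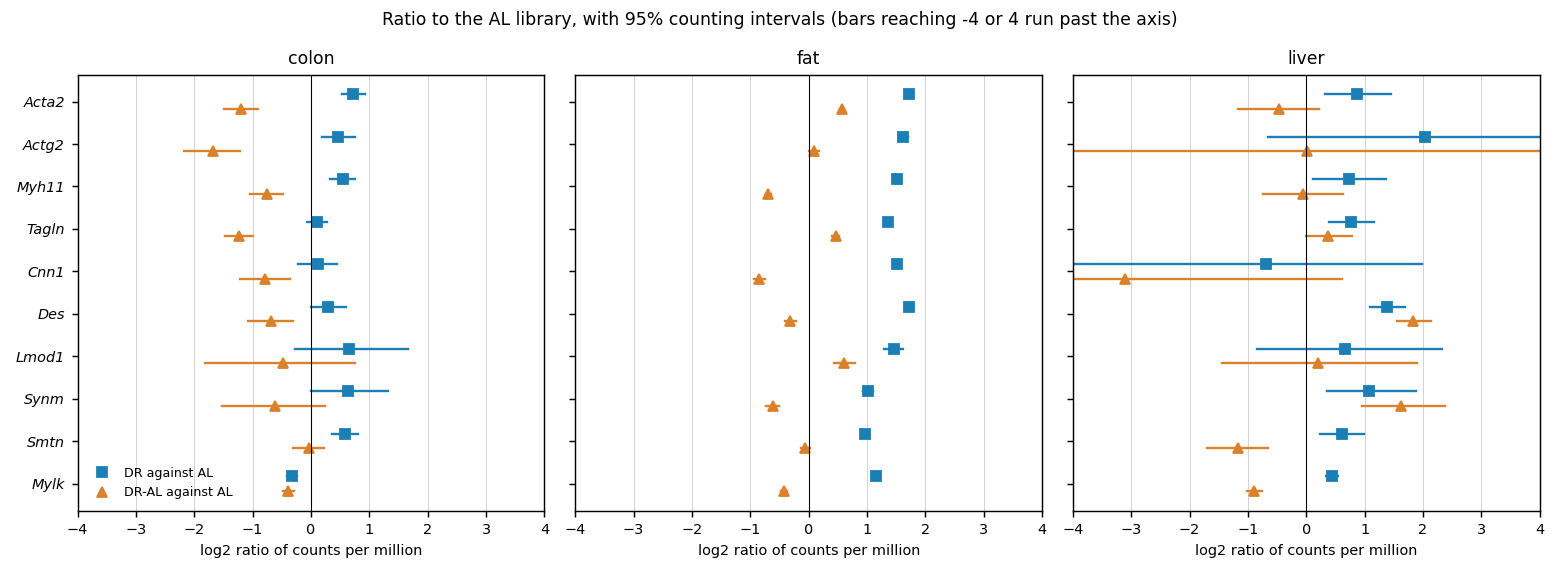
Log2 ratio of DR to AL (squares) and of DR-AL to AL (triangles) for the 10 genes in colon, fat and liver, with bars for exact 95% counting intervals. In fat all 10 squares lie right of 0, in colon all 10 triangles lie left of 0, and in liver the triangles of Des and Synm lie right of 0 while those of Smtn and Mylk lie left.

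In liver, 7 of 10 genes were higher in DR than in AL (18% of 17408 genes tested were) and 0 were lower (9.92%). The median log2 ratio was 0.74, against 0.10 over all genes by library totals and 0.02 by size factors. Acta2 read 1.82, 3.35 and 1.31 CPM in AL, DR and DR-AL, from 45, 73 and 32 counts. Tagln read 3.92, 6.66 and 5.10 CPM, and Myh11 1.58, 2.62 and 1.51. With counts this low, Myh11 passed the Z test but not an exact binomial test of the 2 counts, which left 6 genes higher. With an assumed coefficient of variation of 0.1, 1 stayed higher.

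The genes parted between DR and DR-AL. Des read 5.26, 13.7 and 18.8 CPM from 130, 299 and 460 counts, and Synm 0.970, 2.07 and 3.02 from 24, 45 and 74. Both intermediate filament genes were thus highest in DR-AL, with log2 ratios to AL of 1.83 for Des (interval 1.55 to 2.13) and 1.62 for Synm (0.96 to 2.37). They were the 2 of 10 higher in DR-AL than in AL, where 15% of all genes were.

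The kinase and smoothelin went the other way. Mylk read 54.3, 73.4 and 29.3 CPM and Smtn 4.33, 6.62 and 1.92, both lowest in DR-AL, with log2 ratios to AL of -0.89 for Mylk (interval -1.02 to -0.76) and -1.16 for Smtn (-1.70 to -0.67). With Cnn1, at 4, 2 and 0 counts, the Z test called 3 of 10 lower (15.8% of all genes), and the exact binomial test did not call Cnn1. Against DR, Acta2, Myh11, Smtn and Mylk were lower (4 of 10, against 24% of all genes), and Des was higher (1 of 10, against 16.9%). Acta2, Myh11 and Tagln did not pass between DR-AL and AL. Actg2, at 1, 5 and 1 counts, was at or near the limit of 3 counts.

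Striated muscle genes changed in the same liver libraries. The skeletal muscle list summed to 32.6, 212 and 289 CPM in AL, DR and DR-AL, with 8 of 10 higher in DR and 10 of 10 higher in DR-AL than in AL. Acta1 read 6.87, 60.9 and 75.4 CPM. The 2 not higher in DR were Myh4, which was lower there, at 1.46, 0 and 21.8 CPM, and Actn3, which was not called, at 0.202, 0.322 and 7.80 CPM. Des and Synm are expressed in striated muscle too. Of 16 relatives of the 10 genes outside smooth muscle, 10 were higher and 1 lower in DR than in AL. In DR-AL 6 of the 16 were higher and 3 lower than in AL. Among these relatives, Lmod2, Smtnl1, Mylk2 and Mylk4, which belong to striated muscle, all under 3 CPM, were called higher in both libraries. Mesothelium genes summed to 2.75, 5.56 and 14.2 CPM, with 2 of 5 higher in DR and 5 of 5 in DR-AL. Hepatic stellate cell genes summed to 201, 248 and 175 CPM, with 1 of 4 higher in DR. Endothelial genes summed to 97.9, 140 and 97.9 CPM, with 5 of 8 higher in DR than in AL and 4 of 8 lower in DR-AL than in DR, and so peaked in DR as Acta2, Myh11, Smtn and Mylk did. Over all genes tested in liver, 18% were higher and 9.92% lower in DR than in AL. In DR-AL 15% were higher and 15.8% lower than in AL, and 24% were lower than in DR. The part of any of these gene groups in the members' courses was not tested.

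**Figure D3:**
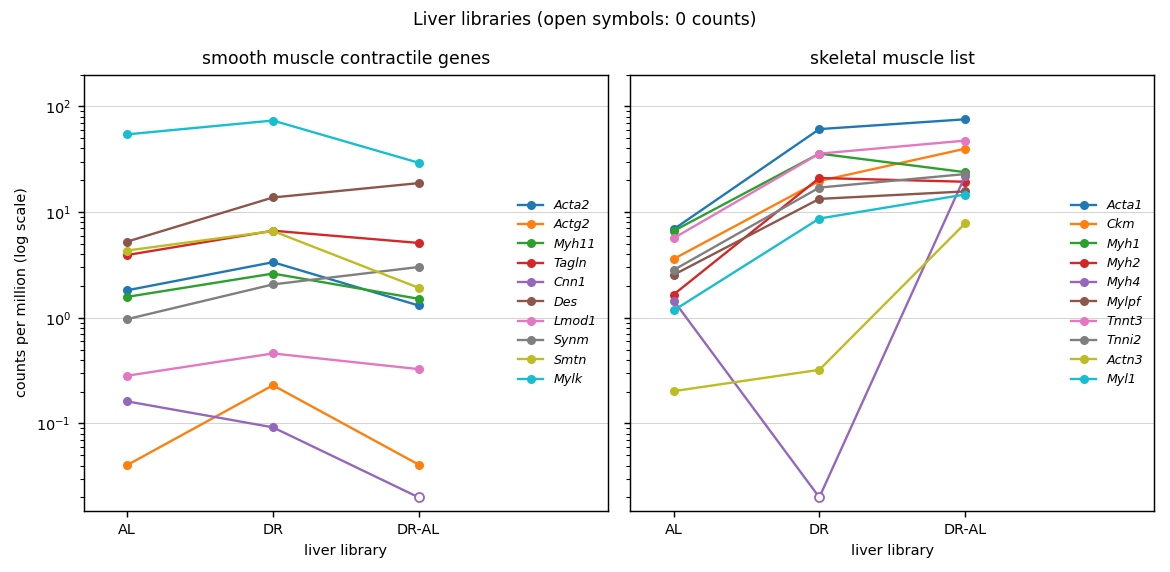
CPM on a log scale in the 3 liver libraries, with the 10 smooth muscle genes on the left and the 10 genes of the skeletal muscle list on the right, 1 line per gene and open symbols for 0 counts. Des and Synm rise through DR to DR-AL as most of the right panel does, while Acta2, Smtn and Mylk peak in DR.

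Of the 18 other contractile genes, 13 were higher and 1 lower in the liver DR library than in AL, against 18% and 9.92% of all genes. In DR-AL 9 were higher than in AL and 3 lower, against 15% and 15.8%. Myl9, at 1.37, 2.57 and 1.14 CPM, peaked in DR, as did Actn1 at 17.4, 31.3 and 7.84. Tpm1 and Tpm2, which striated muscle shares, were highest in DR-AL, at 61.1 and 41.9 CPM. So were Cald1, at 180, 146 and 319 CPM, and Csrp1, at 8.33, 6.75 and 10.6. Neither Cald1 nor Csrp1 was called between DR and AL. Ldb3, a protein of the striated muscle Z disc, read 0.243, 3.45 and 3.27 CPM.

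In hypothalamus, 7 of 10 genes were higher in DR than in AL (4.33% of 19320 genes tested were) and 0 were lower (2.72%). The median log2 ratio was 1.05, against 0.01 over all genes. With an assumed coefficient of variation of 0.1, 4 stayed higher. Acta2 read 10.4, 28.0 and 13.3 CPM in AL, DR and DR-AL, from 310, 916 and 414 counts. Tagln read 5.63, 15.7 and 6.06 CPM, and Myh11 9.03, 22.8 and 12.3. All 3 genes stood highest in DR and lowest in AL.

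Cnn1 had the largest ratio of DR to AL in hypothalamus, 1.68 (interval 0.80 to 2.72), from 13 and 47 counts. Lmod1 rose by 0.84, Smtn by 0.74 and Mylk by 0.63. Des and Synm did not pass, with Synm at 30.8, 34.5 and 37.8 CPM. Between DR and DR-AL the Z test called 6 of 10 lower (6.8% of all genes) and 0 higher (2.82%), among them Acta2 by 1.07 and Tagln by 1.37. The sixth was Actg2, at 6 and 0 counts, and the exact binomial test called the other 5. Against AL, 3 of 10 were higher in DR-AL, Acta2, Myh11 and Smtn (6.06% of all genes), and 0 were lower (9.02%).

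Connective tissue genes were also higher in the hypothalamus DR library. The fibroblast list summed to 145, 196 and 119 CPM in AL, DR and DR-AL, with 6 of 8 higher in DR than in AL and 6 of 8 lower in DR-AL than in DR. From AL to DR-AL, 0 of these 8 were higher and 5 lower, where 3 members were higher and 0 lower. Col3a1 read 3.40, 8.21 and 2.31 CPM. Endothelial genes summed to 95.1, 120 and 107 CPM, with 4 of 8 higher in DR, and pericyte genes to 196, 215 and 193, with 1 higher and 1 lower. Epithelial genes of the colon list summed to 31.0, 20.8 and 13.7 CPM. Of 18 other contractile genes 3 were higher in DR, Myl9, Tpm2 and Cald1, against 4.33% of all genes. Over all genes tested, 2.72% were lower in DR than in AL, and 6.8% were lower in DR-AL than in DR. From AL to DR-AL 6.06% were higher and 9.02% lower. The part of meninges or vessels in the hypothalamus samples was not tested.

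In hippocampus, 1 of 10 genes was higher in DR than in AL, Cnn1, with 13 and 26 counts (1.36% of 18804 genes tested were higher, and 2.67% lower). In DR-AL 7 of 10 were higher than in AL (3.99%) and 0 were lower (2.16%). Acta2 read 15.2, 18.2 and 22.9 CPM in AL, DR and DR-AL, with a log2 ratio of DR-AL to AL of 0.59 (interval 0.43 to 0.76). Lmod1 read 2.07, 2.27 and 3.97 CPM. The largest ratio was 1.69 for Cnn1 (interval 0.74 to 2.82), at 0.321, 0.833 and 1.07 CPM. Against DR, 4 of 10 were higher (3.63%) and 0 lower (1.26%), and Smtn among them did not pass the exact binomial test. With an assumed coefficient of variation of 0.1, 0 of these calls passed in either comparison with AL. Pericyte genes summed to 176, 181 and 196 CPM, with 2 of 8 higher in DR-AL than in AL, endothelial genes to 108, 108 and 125, with 1 of 8 higher, and fibroblast genes to 160, 185 and 195, with 1 of 8 higher. Of 18 other contractile genes 4 were higher in DR-AL than in AL and 0 lower. The part of these cell types in the members' levels was not tested. DR-AL was the highest library for 9 of 10 genes here, against 0 of 10 in colon and fat.

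**Figure D4:**
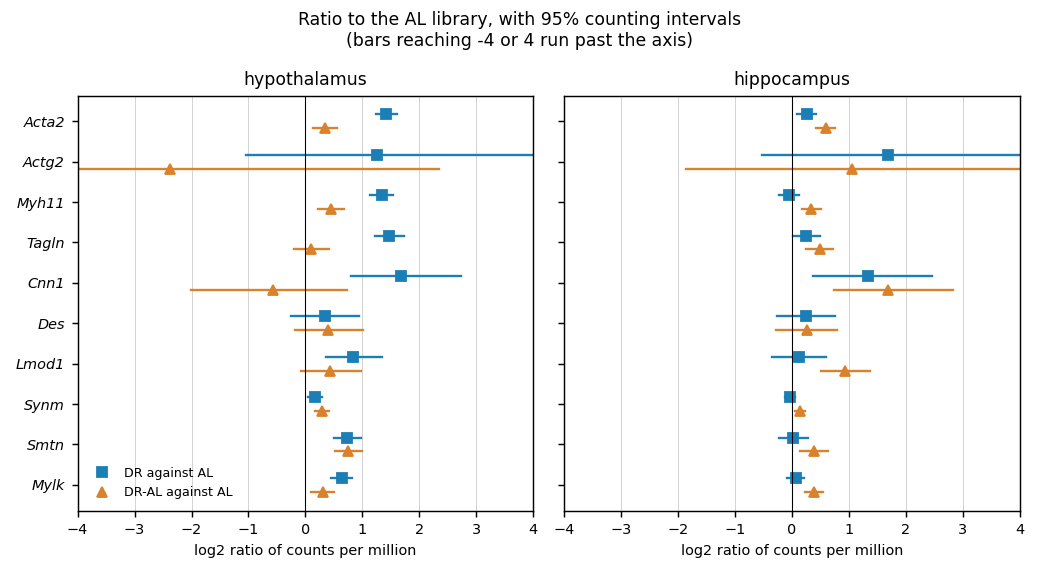
Log2 ratio of DR to AL (squares) and of DR-AL to AL (triangles) for the 10 genes in hypothalamus and hippocampus, with bars for exact 95% counting intervals. In hypothalamus the squares of Acta2, Myh11, Tagln, Cnn1 and the imprecise Actg2 lie beyond 1, and in hippocampus the squares lie near 0 except for Cnn1 and Actg2.

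The balance of both smooth muscle actins differed between tissues, given here as a share of counts that is not corrected for transcript length. Actg2 made up 33.5% of the counts on Acta2 and Actg2 in colon AL (Wilson interval at 95%, 29.5 to 37.8), 29.6% in DR (26.8 to 32.6) and 26.5% in DR-AL (20.7 to 33.3), and these intervals overlap. In fat the share was 19.8% in AL (19.1 to 20.6), 18.8% in DR (18.4 to 19.3) and 15.04% in DR-AL (14.5 to 15.6), so that the DR-AL interval lies below the others. In liver it was 2.17%, 6.41% and 3.03% from 1, 5 and 1 Actg2 counts. In the 6 brain libraries it was at most 1.04%, and 0 of 414 counts in hypothalamus DR-AL, for which the upper bound is 0.919%. As FPKM, Actg2 and Acta2 stood at 5.29 and 5.09 in colon AL, 7.35 and 7.91 in DR, and 1.65 and 2.40 in DR-AL. In fat they stood at 41.3 and 85.0 in AL, 72.3 and 174 in DR, and 13.8 and 41.7 in DR-AL. Per length, the 2 actins were thus closer to each other than the count shares show.

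**Figure D5:**
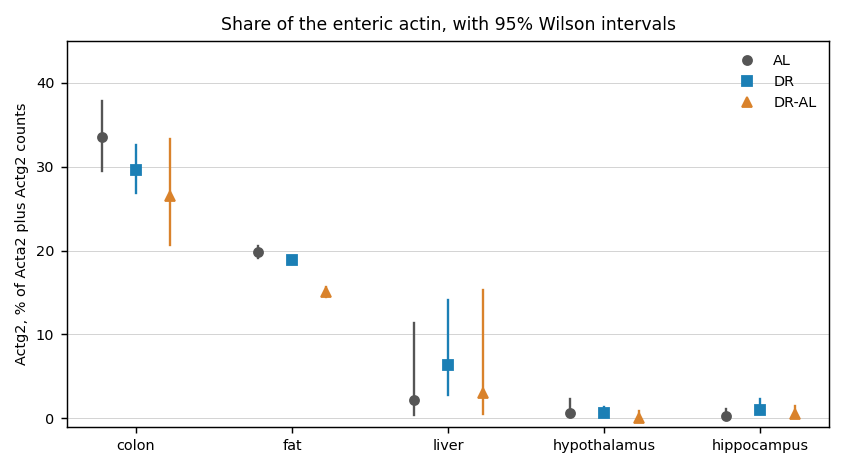
Actg2 as a percent of the counts on Acta2 and Actg2 in each of the 15 libraries, with bars for Wilson 95% intervals. The share lies between 26.5% and 33.5% in colon, between 15.04% and 19.8% in fat, and under 7% elsewhere.

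A diet effect common to all 5 tissues was tested in the edgeR quasi-likelihood fit, where tissues serve as repeats of a diet. For DR against AL 0 of 10 genes passed an adjusted p of 0.05 in edgeR, with 5 at an unadjusted p under 0.05 and 0 called by DESeq2, and all 10 had a fitted log2 ratio above 0, from 0.36 to 1.07. For DR-AL against DR 0 passed in edgeR, with 6 at an unadjusted p under 0.05, all 10 ratios below 0, and 1 gene, Actg2, called by DESeq2. For DR-AL against AL 0 passed in edgeR, with 1 at an unadjusted p under 0.05 and 0 in DESeq2. Over all 17476 genes these 3 comparisons called 0.00572% or 0% in each direction. Actg2 had the largest fitted ratio for DR-AL against DR, -1.85 ± 0.33 (SE), with an edgeR adjusted p of 0.65. Most counts of Actg2 were in colon and fat. In AL, DR and DR-AL it had 1, 5 and 1 counts in liver, 2, 6 and 0 in hypothalamus and 2, 6 and 3 in hippocampus.

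Across the 15 libraries the members followed one another unequally. The Pearson correlation of a gene's log2 CPM with the mean of the other 9 was highest for Tagln (0.985) and Myh11 (0.975) and lowest for Synm (0.475), Des (0.769) and Mylk (0.797). Libraries of a tissue share that tissue, and libraries of a diet share mice. Among 14079 other genes that averaged 100 counts or more per library, the 10 most like the mean of the members were P2rx1 (0.977), Nid2, Pdlim3, Aoc3, F13a1, S100a4, Aspn, Mpp1, Tspan14 and Cdnf (0.963). P2rx1, an ATP-gated channel of smooth muscle, read 15.6, 54.3 and 13.0 CPM in the fat libraries and at most 0.918 elsewhere. All 10 were higher in each fat library than in any other library, so their likeness need not reflect a shared course over the diets. In fat AL, DR and DR-AL, Aoc3 read 1436, 1215 and 753 CPM and Mpp1 144, 137 and 107, both highest in AL. The rest were highest in DR, though Tspan14 was nearly level between DR and DR-AL (82.8 and 82.6 CPM).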

How the data were processed

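The authors made stranded libraries from pooled RNA depleted of ribosomal RNA, removed duplicate reads and deposited raw counts and FPKM per locus. The submitters' processing notes name mm9 and the study's methods mm10, so positions here come from GENCODE M21 (GRCm38). Loci without a gene name held 0.258% to 1.39% of counts and were left out. Following the study's methods, the deposited counts were divided by library totals and compared within a tissue by a Z test on square roots with Benjamini-Hochberg adjustment and a minimum change of 25% up or 20% down, over genes with at least 1 count in the 3 libraries. edgeR 4.0.16 (quasi-likelihood, TMM, 17476 genes after filterByExpr) fitted tissue and diet over 15 libraries, and DESeq2 1.42.0 was an alternative. With 1 library per group no p-value is given for a single tissue. Scripts were tested on simulated data. Named are all 10 genes, members of 20 gene lists, and the 10 genes most like the members' mean log2 CPM. Members and lists were chosen with earlier results of these data known. The lists are not independent of these libraries, and 1 of their genes is counted but not reported here by name.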

Additional observations from a re-analysis of the deposited data

Results flagged for a closer look

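Some genes moved in opposite directions in 2 tissues under the same diet comparison, each beyond its own counting interval. None of these differences between tissues was tested, since each tissue and diet had 1 library. The values are differences of log2 ratios, the first tissue less the second. For DR against AL, Mylk was higher in fat and lower in colon (1.48). For DR-AL against AL, Des was higher in liver and lower in colon (2.52), Synm higher in liver and lower in fat (2.23), Cnn1 higher in hippocampus and lower in fat (2.54), Smtn higher in hypothalamus and lower in liver (1.91) and Mylk higher in hippocampus and lower in liver (1.28). In the same comparison, Acta2 (1.79) and Tagln (1.72) were higher in hippocampus and Myh11 (1.203) in hypothalamus, and all 3 were lower in colon. For DR-AL against DR, Des was higher in liver and lower in fat (2.48), Acta2 higher in hippocampus and lower in colon (2.25), and Smtn higher in hippocampus and lower in liver (2.13). Myh11 (2.59) and Lmod1 (1.65) were higher in hippocampus and lower in fat.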

How the results depend on the processing

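Of the counts of called genes under another setting, 309 were equal to the reported count or within 1.5 times of it, and 47 were not. Counts of 0 under both settings are among the 309, so this split does not measure how stable the calls are. A fold of 2 left 0 higher and 0 lower for DR against AL in colon, 2 higher in liver and 4 higher in hypothalamus. For DR-AL against AL it left 3 lower in colon, 0 higher and 0 lower in fat, 0 higher in hypothalamus and 1 higher in hippocampus, and for DR-AL against DR 5 lower in colon, 0 higher in liver and 0 higher in hippocampus. edgeR's exact test with an assumed coefficient of variation of 0.1 gave 1 higher and 0 lower for DR against AL in colon, 1 higher in liver, 4 in hypothalamus and 0 in hippocampus. It gave 3 lower in colon, 1 higher in hypothalamus and 0 higher in hippocampus for DR-AL against AL, and 0 higher in liver and hippocampus for DR-AL against DR. DESeq size factors gave 0 higher in fat and 5 higher in hypothalamus for DR-AL against AL, and 2 higher in liver for DR-AL against DR. The FPKM settings had no test, so their counts rest on a change of 25% up or 20% down alone, also for genes with few counts. FPKM with 0.1 added gave 2 lower in colon, 1 lower in liver and 5 higher in hippocampus for DR against AL. For DR-AL against AL it gave 0 higher and 10 lower in fat and 6 higher and 1 lower in hypothalamus, and for DR-AL against DR 2 higher in liver and 1 lower in hippocampus. FPKM with 1 added gave 0 higher and 10 lower in fat and 4 higher in hippocampus for DR-AL against AL, and 3 lower in hypothalamus and 1 higher in hippocampus for DR-AL against DR. By FPKM the direction turned for Myh11 in colon DR against AL (-0.33, and -0.28 with 1 added) and, in fat DR-AL against AL, for Acta2 (-1.02 and -1.01), Tagln (-1.18 and -1.16) and Lmod1 (-1.003 and -0.66), where all genes tested had a median of -1.01 with 0.1 added. The cause was not tested.

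In the fit over tissues, DESeq2 called 1 gene lower for DR-AL against DR, and edgeR called 0 to 0 genes when each tissue was left out in turn. Leaving out each diet in turn gave 3 to 5 higher and 1 to 1 lower for colon against liver, 9 to 10 higher for fat against liver, 10 to 10 lower for colon against fat, and 0 to 1 lower for hypothalamus against hippocampus, where no filter on low counts gave 0. The exact binomial test was chosen after seeing the data, because the Z test called 4 counts against 0. The fit over tissues compared diets within tissue. No paired analysis was possible by replicate number, because the labels carry none and each tissue and diet had 1 library. In liver and brain, 3 counts correspond to 0.0741 to 0.138 CPM across the libraries, so Actg2 there and Cnn1 in liver are near the limit of detection.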
